A study of Homo sapiens with 4 samples.

Results

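The genes described here are 412 intergenic long noncoding RNAs that OCI-AML3 leukaemia cells express at a measurable level. They were chosen as the rows of the deposited gene table that GENCODE release 29 types as lincRNA and that averaged at least 1 CPM over all 4 libraries (counts per library total, scaled to 1000000). Small nucleolar RNA host genes and EPB41L4A-AS1 were left out, which removed 6 of 418 rows. The 412 genes are a small share of the 67062 rows and of the 7542 lincRNA rows, 2713 of which had any count, and they held 0.499% of all counts. All 412 passed the filter on low counts, so every count given below covers all of them. The genes were thus selected on their mean level, which is given only as a description. The closest genes inside the limit were AC023632.2 and AL596094.1 at 1.002 CPM and LINC00115 at 1.01 CPM, and the closest outside it were HRAT92 at 0.995, FAM157C at 0.992 and AC010680.4 at 0.981 CPM.

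Long noncoding RNAs are transcripts that are capped and often spliced like messenger RNAs but encode no known protein. Some act in the nucleus as scaffolds, such as NEAT1, on which paraspeckles assemble, and some act in the cytoplasm by binding proteins, such as NORAD, which binds PUMILIO proteins. Others are the primary transcripts from which microRNAs are cut, and for many the act of transcription near a coding gene is the property that has been studied. In haematopoietic cells such RNAs are often restricted to a single lineage or stage.

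The study asked what a further lncRNA, LONA, changes in OCI-AML3, an established human acute myeloid leukaemia line with mutant NPM1. In the PIG-LONA group (2 libraries) the cells carried the retroviral vector pMSCV-PIG with the whole LONA sequence behind an RNA polymerase II promoter. In the PIG-EMPTY group (2 libraries) they carried the same vector without LONA. Both groups express the vector's puromycin resistance gene and GFP, both were sorted for GFP, and each group comes from 2 independent transductions of this single line. Poly(A) RNA was sequenced. LONA itself was not analysed here because none of the gene names used here matched it, so the transgene could not serve as a check of the labels.

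The libraries held 30181550 and 38358442 counts in PIG-LONA and 29819572 and 32350832 counts in PIG-EMPTY. The myeloid markers CD33, MPO, FLT3, CEBPA, SPI1, CSF3R, ITGAM and CD14 averaged between 2.56 and 431 CPM, whereas the T cell, B cell, erythroid, epithelial and fibroblast markers stayed at or below 0.727 CPM, with CD3D, CD3E, CD3G, MS4A1, HBA1, HBB and EPCAM at 0. The PIG-LONA libraries differed more from each other than the PIG-EMPTY libraries did, with a chi-square per gene of 4.67 against 1.81.

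Of the 412 lncRNAs, 22 contain an annotated microRNA gene on their own strand. Some of these hosts, including the host with the largest fall, were left out of the sequence search by choice. Among the hosts searched, mature sequences were matched in RefSeq (GRCh38.p14) for 17. Sequences of only some of the hosts described below are shown, with the seed (bases 2 to 8, the part that pairs with targets) in capitals. CARMN is the host of miR-143 and miR-145, microRNAs known from smooth muscle, and is shown because it fell in PIG-LONA.
hsa-miR-143-5p: gGUGCAGUgcugcaucucuggu
hsa-miR-143-3p: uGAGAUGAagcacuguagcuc
hsa-miR-145-5p: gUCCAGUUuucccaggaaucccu
hsa-miR-145-3p: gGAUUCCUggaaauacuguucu
MIR22HG and MIR503HG are shown because their log2 fold changes were the next in size among the hosts.
hsa-miR-22-3p: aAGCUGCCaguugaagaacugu
hsa-miR-503-5p: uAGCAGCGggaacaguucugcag
MIRLET7BHG and AC048341.1, on chromosomes 22 and 12, carry let-7 microRNAs that share the seed GAGGUAG.
hsa-let-7a-5p: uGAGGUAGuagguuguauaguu
hsa-let-7b-5p: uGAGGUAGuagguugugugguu
hsa-let-7i-5p: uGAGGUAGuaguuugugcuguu
MIR222HG, on chromosome X, carries miR-221 and miR-222, which share the seed GCUACAU.
hsa-miR-221-3p: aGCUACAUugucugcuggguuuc
hsa-miR-222-3p: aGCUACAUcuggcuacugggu
The libraries hold poly(A) RNA, so the levels below are those of host transcripts, and the mature microRNAs were not measured.

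Promoters of 177 of the lncRNAs were matched in RefSeq, as windows from 250 bases before to 50 bases after the annotated start. Both strands were searched for a PU.1 core (GAGGAAG), a C/EBP motif (TTNNGNAA), an AP-1 motif (TGANTCA) and an E-box (CACGTG). They were also searched for the TATA box letters TATAAA and for the letters CCAAT, named after that sequence. C/EBP letters stood in 33.9% of these 177 windows and in 37.2% of all 27305 promoters, PU.1 letters in 18.1% and 13.4%, AP-1 letters in 5.65% and 7.76%, TATA letters in 9.04% and 12%, CCAAT in 41.8% and 35.7%, and the E-box in 6.21% and 7.43%. The lncRNA windows had a median of 62% G and C and 21 CpG sites, against 58.3% and 14 in all promoters. A match is a stretch of letters and not a site shown to be bound.

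The windows of 2 lncRNAs that fell in PIG-LONA are shown with the matches in capitals. For LINC01929 (chr18:55124257-55124556, minus strand, written 5′ to 3′) these are a C/EBP match at -97 and an AP-1 match at -41 from the start, with no overlap between them.
LINC01929: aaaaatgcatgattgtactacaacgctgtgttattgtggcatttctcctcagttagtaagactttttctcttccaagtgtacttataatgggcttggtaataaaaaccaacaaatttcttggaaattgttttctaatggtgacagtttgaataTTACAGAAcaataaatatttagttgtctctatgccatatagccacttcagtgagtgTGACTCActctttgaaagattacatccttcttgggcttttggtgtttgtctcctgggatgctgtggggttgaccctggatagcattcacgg
For CARMN (chr5:149406595-149406894, plus strand) they are an E-box at -81 and CCAAT boxes at -62 and -22, again with no overlap. The RefSeq start of CARMN lies at 149406845, inside the gene that release 29 starts at 149406689.
CARMN: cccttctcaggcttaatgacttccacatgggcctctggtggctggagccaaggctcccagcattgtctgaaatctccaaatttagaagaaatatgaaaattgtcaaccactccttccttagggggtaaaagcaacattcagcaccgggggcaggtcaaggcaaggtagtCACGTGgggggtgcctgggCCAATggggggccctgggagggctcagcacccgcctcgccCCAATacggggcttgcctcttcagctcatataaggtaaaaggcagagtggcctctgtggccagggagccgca

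In PIG-LONA, 4 of the 412 lncRNAs rose and 7 fell, which is 2.67%, and the other 401 did not pass the test (quasi-likelihood test of edgeR at a p under 0.05 after Benjamini-Hochberg adjustment over every gene tested). Over all 15918 tested genes 6.44% passed, 2.93% higher and 3.51% lower. At an unadjusted p under 0.05 the lncRNAs numbered 56, or 13.6%, against 18.7% of all tested genes. Both PIG-LONA libraries lay above both PIG-EMPTY libraries for 83 lncRNAs and below them for 98, together 43.9%, against 48% of all tested genes. The median log2 fold change of PIG-LONA over PIG-EMPTY was 0.000326, with quartiles at -0.14 and 0.14, and over all tested genes it was 0.00106. Neither the share of calls nor the median of the lncRNAs stood above what all genes showed.

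Counts were small for most of these genes. The median level was 2.90 CPM, against 18.6 CPM over all tested genes, and the median standard error of a log2 fold change was 0.18, against 0.08. Of the 412 lncRNAs, 144 averaged under 2 CPM, 195 were at 2 to 10, 68 at 10 to 100 and 5 at 100 CPM or more. The share that passed was smallest at the lowest levels, for the lncRNAs and for other genes alike. Of the 144 genes at 1 to 2 CPM 0 passed by edgeR, with 7 at an unadjusted p under 0.05, and 2.89% of other genes at that level passed. At 2 to 5 CPM the shares were 1.48% of the lncRNAs and 3.52% of other genes, at 5 to 10 CPM 3.33% and 7.49%, at 10 to 50 CPM 9.68% and 8.23%, and at 50 CPM or more 9.09% (1 of 11) and 9.25%. For 249 lncRNAs (60.4%) the 95% interval of the fold change lay inside 1.5-fold in both directions, and for 397 it lay inside 2-fold. Of the 8 whose estimate was at least 1.5-fold, 6 were lower, of which 2 passed, and 2 were higher, of which 0 passed.

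**Figure D1:**
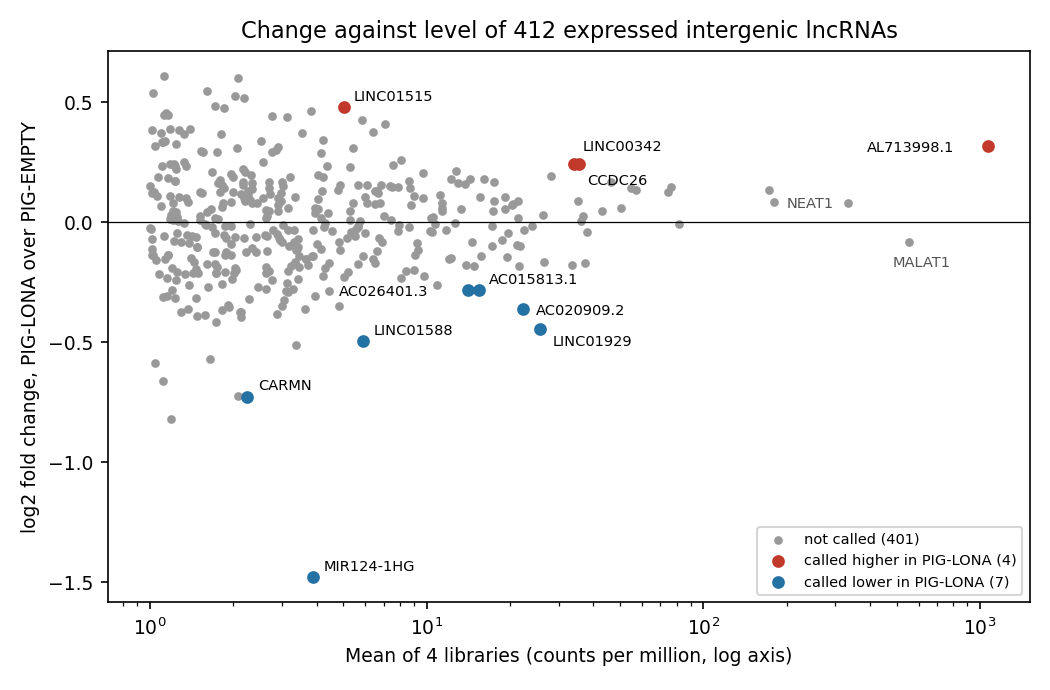
Log2 fold change of PIG-LONA over PIG-EMPTY (vertical axis) against the mean CPM of 4 libraries (horizontal log axis) for the 412 lncRNAs, 1 point each, red where called higher (4) and blue where called lower (7). The grey points narrow around 0 toward high levels, and MIR124-1HG stands lowest at -1.48.

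The counts of 4 higher and 7 lower depended on the settings. By DESeq2 they were 1 and 2, and likewise 1 and 2 with no filter on low counts. A fit that leaves out a library takes the spread between replicates from the intact pair alone. The PIG-LONA pair was the more variable, with a chi-square per gene of 4.67 against 1.81. Whether a gene passes such a fit depends on which pair is intact, so for single genes only log2 fold changes are given for such fits. The 3 genes that passed in every setting that kept all 4 libraries and tested them were AL713998.1, MIR124-1HG and LINC01929.

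MIR124-1HG, listed as LINC00599 in release 29, is the host transcript of miR-124-1, a microRNA best known from neurons. It lies on the minus strand of chromosome 8, from 9900064 to 9905366 (GRCh38), with the microRNA gene inside, whose mature sequence was not looked up. Its counts were 66 and 73 in PIG-LONA and 193 and 160 in PIG-EMPTY. Scaled to library size it averaged 2.05 ± 0.22 CPM in PIG-LONA and 5.70 ± 1.10 CPM in PIG-EMPTY (mean ± SD, n = 2 each). The groups did not overlap, and both PIG-LONA libraries were far below the lower PIG-EMPTY library. The gene fell 2.79-fold, with a log2 fold change of -1.48 and a standard error of 0.18 (edgeR adjusted p = 2.2e-05; such errors follow the ± sign below), and stayed between -1.67 and -1.27 in all 15 other settings. In bulk RNA of this kind, fewer cells that express a gene and less RNA per cell cannot be told apart, here and for all genes below.

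LINC01929 lies on the minus strand of chromosome 18, from 55105904 to 55124306, with no other annotated gene overlapping it. Its counts were 616 and 878 in PIG-LONA and 914 and 933 in PIG-EMPTY, which is 21.7 ± 1.6 CPM in PIG-LONA and 29.7 ± 1.4 CPM in PIG-EMPTY (n = 2 each). Once scaled, both PIG-LONA libraries were below both PIG-EMPTY libraries. The log2 fold change was -0.45 ± 0.07 (edgeR adjusted p = 0.000244), and it stayed between -0.526 and -0.377 in all 15 other settings.

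CARMN, which is known from the heart and smooth muscle, lies on the plus strand of chromosome 5, from 149406689 to 149432835, and contains MIR143 and MIR145. It had 51 and 65 counts in PIG-LONA and 74 and 101 counts in PIG-EMPTY. The scaled levels were 1.70 and 1.69 CPM in PIG-LONA and 2.48 and 3.11 CPM in PIG-EMPTY, so the PIG-LONA libraries were alike and both lower. The log2 fold change was -0.73 ± 0.20 (edgeR adjusted p = 0.0322). In the same edgeR fit it was -0.55 with PIG-EMPTY replicate 2 left out and -0.87 with PIG-EMPTY replicate 1 left out. Leaving out PIG-LONA replicate 2 gave -0.72. By DESeq2 CARMN did not pass (adjusted p = 0.245). CARMN shares 2 overlapping microRNA genes on its strand and 1 gene on the other strand, and whether reads were counted by strand is not given in the sources used here.

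LINC01588, on chromosome 14 (49927571 to 50092643, minus strand), had 144 and 191 counts in PIG-LONA and 191 and 239 counts in PIG-EMPTY. Scaled, these were 4.81 and 4.96 CPM in PIG-LONA and 6.41 and 7.35 CPM in PIG-EMPTY, and the groups were apart. LINC01588 overlaps another annotated gene, so its reads cannot be assigned with certainty. It fell by 0.49 ± 0.13 on the log2 scale (edgeR adjusted p = 0.0186), and was at -0.39 without PIG-EMPTY replicate 2. By DESeq2 it did not pass (adjusted p = 0.156).

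The other 3 lncRNAs that fell overlap a protein-coding gene, so their reads cannot be assigned with certainty. AC020909.2 (chromosome 19, 50486810 to 50487638, minus strand) lies opposite EMC10, which encodes a subunit of a membrane protein insertase. Its scaled levels were 22.1 and 17.3 CPM in PIG-LONA and 24.9 and 25.1 CPM in PIG-EMPTY, a log2 fold change of -0.36 ± 0.08 (edgeR adjusted p = 0.0113), while EMC10 was at -0.09 ± 0.05 (adjusted p = 0.321). PIG-LONA replicate 2 was the lowest library, and without it the value of AC020909.2 was -0.18. By DESeq2 this lncRNA did not pass (adjusted p = 0.0674).

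AC015813.1 (chromosome 17, 57989039 to 57994850, minus strand) overlaps the coding gene AC015813.2 on the same strand. It had 13.95 and 13.93 CPM in the PIG-LONA libraries and 16.8 and 17.1 CPM in the PIG-EMPTY libraries, a log2 fold change of -0.28 ± 0.08 (edgeR adjusted p = 0.0281). The pairs were tight and apart, and the value ran from -0.291 to -0.272 when libraries were left out. By DESeq2 the gene did not pass (adjusted p = 0.234). AC026401.3 (chromosome 16, 15701237 to 15702118, plus strand) lies within NDE1, a gene of the mitotic spindle and neuronal migration, on the same strand. It had 388 and 481 counts in PIG-LONA and 447 and 515 counts in PIG-EMPTY, or 12.7 ± 0.3 CPM in PIG-LONA and 15.4 ± 0.6 CPM in PIG-EMPTY (SD, n = 2 each). The scaled levels did not overlap, and its log2 fold change was -0.28 ± 0.08 (edgeR adjusted p = 0.0414), beside -0.05 ± 0.05 for NDE1. By DESeq2 AC026401.3 did not pass (adjusted p = 0.3). Its value ran from -0.317 to -0.238 when libraries were left out.

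**Figure D2:**
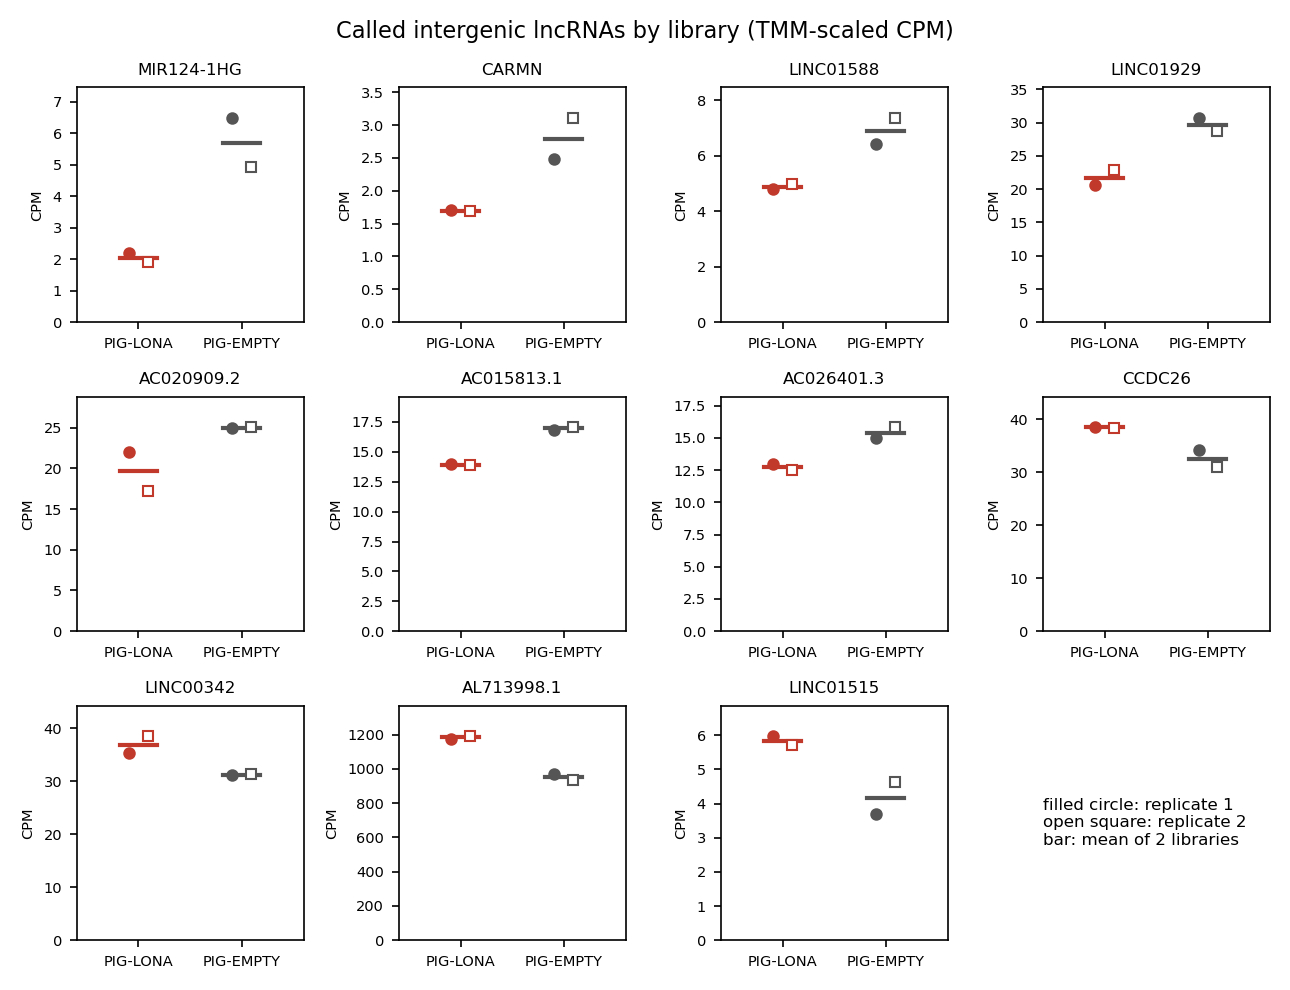
TMM-scaled CPM (vertical axes from 0) of the 11 lncRNAs that passed the test, PIG-LONA in red and PIG-EMPTY in grey, with a symbol per library and a bar for the mean of 2 libraries. The panels run from the lowest log2 fold change (MIR124-1HG, -1.48) to the highest (LINC01515, 0.48), and the groups do not overlap in any of the 11.

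Among the 4 that rose, AL713998.1 was the most abundant intergenic lncRNA of these cells. It lies on the minus strand of chromosome 6, from 67887646 to 67889339, with no overlapping gene and 746028 bases from the nearest coding gene, ADGRB3. Its counts were 35294 and 45886 in PIG-LONA and 28920 and 30345 in PIG-EMPTY, or 21.6% of all counts in the 412 genes, and per kilobase of exon it led as well, at 666 CPM per kb against 93.5 for AC104232.1, the next gene. Scaled, it was at 1178 and 1192 CPM in PIG-LONA and 970 and 934 CPM in PIG-EMPTY. Both PIG-LONA libraries were higher, by far more than either pair differed within itself. The log2 fold change was 0.32 ± 0.03 (edgeR adjusted p = 4e-06). Chromosome 6 as a whole was higher in PIG-LONA, as described below, and with that shift removed the gene was at 0.14 (adjusted p = 0.00717).

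CCDC26, studied in myeloid leukaemia, spans a long stretch of chromosome 8 on the minus strand (128634199 to 129683679) and with 30265 bases has the longest exonic sequence of the 412. It had 1155 and 1481 counts in PIG-LONA and 1019 and 1009 counts in PIG-EMPTY, or 38.6 and 38.5 CPM in PIG-LONA and 34.2 and 31.0 CPM in PIG-EMPTY. The PIG-LONA libraries agreed closely and were both higher, with a log2 fold change of 0.24 ± 0.06 (edgeR adjusted p = 0.0137). Without PIG-EMPTY replicate 2, the lowest library, it was 0.17. By DESeq2 CCDC26 did not pass (adjusted p = 0.0961).

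LINC00342 (chromosome 2, 95807118 to 95816215, minus strand) had 1055 and 1481 counts in PIG-LONA and 930 and 1016 counts in PIG-EMPTY, or 35.2 and 38.5 CPM in PIG-LONA and 31.2 CPM in both PIG-EMPTY libraries. Its log2 fold change was 0.24 ± 0.06 (edgeR adjusted p = 0.0141). The groups did not overlap. The value ran from 0.175 to 0.302 when libraries were left out, and the gene did not pass by DESeq2 (adjusted p = 0.105). A near-identical copy elsewhere matches 29.7% of its longest transcript, so part of its reads may be shared.

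LINC01515 (chromosome 10, 65570338 to 65768835, plus strand) had 179 and 220 counts in PIG-LONA and 110 and 151 counts in PIG-EMPTY, or 5.98 and 5.72 CPM in PIG-LONA and 3.69 and 4.65 CPM in PIG-EMPTY. The groups were apart, with the PIG-EMPTY libraries less alike than the PIG-LONA libraries. The log2 fold change was 0.48 ± 0.14 (edgeR adjusted p = 0.0445), the largest rise of the 4, and it was 0.33 without PIG-EMPTY replicate 1. By DESeq2 LINC01515 did not pass (adjusted p = 0.261).

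The best known nuclear lncRNAs did not pass the test. MALAT1, which localises to nuclear speckles, had 586 and 490 CPM in PIG-LONA and 592 and 547 CPM in PIG-EMPTY. The PIG-LONA libraries differed more from each other than the group means did, and the groups overlapped (log2 fold change -0.08 ± 0.06, edgeR adjusted p = 0.466). It took both signs, at 0.04 when PIG-LONA replicate 2 was left out and at -0.22 when PIG-LONA replicate 1 was. NEAT1 had 193 and 178 CPM in PIG-LONA and 179 and 171 CPM in PIG-EMPTY, with PIG-LONA replicate 2 just below PIG-EMPTY replicate 1, and a log2 fold change of 0.08 ± 0.04 (edgeR adjusted p = 0.299). Without PIG-LONA replicate 2 it was 0.145, and without PIG-LONA replicate 1 it was 0.027.

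Other abundant lncRNAs had small positive values that did not pass. NORAD had 174 and 188 CPM in PIG-LONA and 167 and 164 CPM in PIG-EMPTY (log2 fold change 0.13 ± 0.04, edgeR adjusted p = 0.0631), so both PIG-LONA libraries were above both PIG-EMPTY libraries by a narrow margin. EBLN3P, a gene that holds a bornavirus-like sequence, had 77.9 and 82.7 CPM in PIG-LONA and 72.7 and 72.5 CPM in PIG-EMPTY (0.15 ± 0.05, edgeR adjusted p = 0.0614). Without PIG-LONA replicate 1 NORAD was at 0.187 and EBLN3P at 0.188, and without PIG-LONA replicate 2 they were at 0.0766 and 0.103. CRNDE was at 0.13 ± 0.04, AC005332.6 at 0.13 ± 0.05, LINC00482 at 0.14 ± 0.05, LINC00926 at 0.08 ± 0.04 and AC104232.1 at -0.01 ± 0.04. LINC00926 was at 0.126 when PIG-LONA replicate 2 was left out. LINC00482 was at 0.19 and AC005332.6 at 0.14 when PIG-LONA replicate 1 was. Of the 11 lncRNAs at 50 CPM or more, AL713998.1 included, 9 had a positive value. In 8 of the 11 (72.7%) the PIG-LONA libraries lay above the PIG-EMPTY libraries. This compares with 1330 of the 4682 other genes at that level and 23.7% of all tested genes. The median of the 11 was 0.13, whereas the median of those other genes was 0.01.

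Summed over all 412 genes the level was 5171 and 5060 CPM in PIG-LONA and 4885 and 4811 CPM in PIG-EMPTY. Without AL713998.1 the sums were 3993 and 3868 CPM in PIG-LONA and 3915 and 3877 CPM in PIG-EMPTY, and the groups overlapped. The 5 most abundant genes, AL713998.1, MALAT1, LINC00926, NEAT1 and NORAD, held 46.4% of the counts. Beyond level, the 412 genes had medians of 2063 exonic bases and 2 exon blocks, against 5159 and 11 in expressed coding genes. Of the 412, 139 (33.7%) had a single exon block, against 2.25% of those coding genes.

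Chromosome 6 carried 25 of the lncRNAs, and 24 of these had a positive log2 fold change. In 11 the PIG-LONA libraries lay above the PIG-EMPTY libraries and in 0 below, by a comparison of scaled levels. Over all 799 tested genes of the chromosome 491 lay above and 63 below, and over all tested genes 23.7% lay above and 24.4% below. The median of the lncRNAs was 0.17, the same as the median of 0.17 over the 774 other tested genes of chromosome 6. Of the 799 tested genes, 30% passed the test, whereas 1 of the 25 lncRNAs (AL713998.1) did. HCG27, in the major histocompatibility region, was at 0.46 ± 0.15 (edgeR adjusted p = 0.0843), and AL356417.3 was at 0.41 ± 0.14 (adjusted p = 0.0892), both named after their values were seen. KIF25-AS1 was the single negative one at -0.20 ± 0.22. Off chromosome 6 the median of the other 387 was -0.02.

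**Figure D3:**
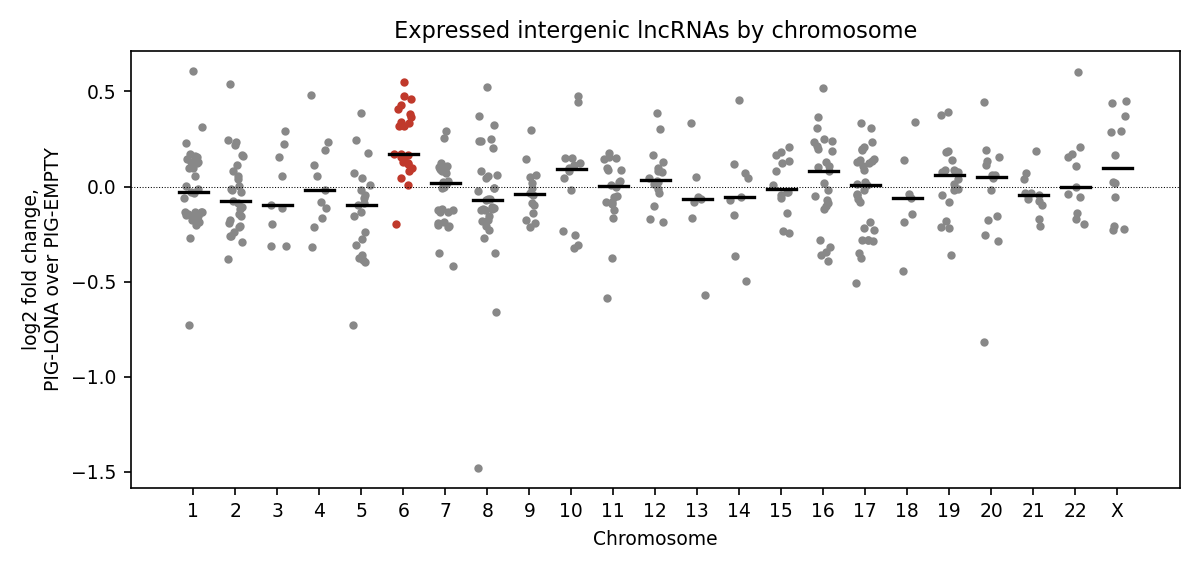
Log2 fold change of PIG-LONA over PIG-EMPTY (vertical axis) of the 412 lncRNAs by chromosome, 1 point per gene, with a bar at each chromosome's median and chromosome 6 in red. The chromosome 6 median of 0.17 lies highest of the chromosomes, and 24 of its 25 points lie above 0.

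MicroRNA hosts included the largest fall, that of MIR124-1HG. Of the 22 lncRNAs with a microRNA gene inside, CCDC26 rose, MIR124-1HG and CARMN fell and 19 did not pass. This is 13.6% called, against 6.44% of all tested genes. The hosts had a median level of 9.31 CPM, and 7.49% of other genes at 5 to 10 CPM passed. By DESeq2 CCDC26 and CARMN did not pass (adjusted p = 0.0961 and 0.245). The median log2 fold change of the 22 hosts was 0.05. MIR22HG had 2.84 and 2.70 CPM in PIG-LONA and 4.40 and 3.51 CPM in PIG-EMPTY, with both PIG-LONA libraries lower (log2 fold change -0.51 ± 0.17, edgeR adjusted p = 0.0815). Its value ran from -0.668 to -0.343 when libraries were left out.

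The hosts of let-7 and of miR-221 and miR-222, whose shared seeds are shown above, had negative values that did not pass. MIRLET7BHG was at 37.96 and 32.6 CPM in PIG-LONA and 38.7 and 40.4 CPM in PIG-EMPTY (log2 fold change -0.17 ± 0.06, edgeR adjusted p = 0.135). It was at -0.28 without PIG-LONA replicate 1 and at -0.0574 without PIG-LONA replicate 2. PIG-LONA replicate 2 was its lowest library. The let-7i host AC048341.1 was at -0.17 ± 0.15, with overlapping groups, and AL158152.1, now named MIRLET7A1HG, at -0.04 ± 0.10. MIR222HG had 9.25 and 8.89 CPM in PIG-LONA and 9.70 and 11.4 CPM in PIG-EMPTY (-0.23 ± 0.10, edgeR adjusted p = 0.232).

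MIR503HG went the other way, at 3.87 and 3.33 CPM in PIG-LONA and 2.65 and 2.61 CPM in PIG-EMPTY (0.44 ± 0.17, edgeR adjusted p = 0.147), with the groups apart. The host of miR-155, an inflammatory microRNA of blood cells, was at 0.07 ± 0.10, and the p53-induced host MIR34AHG was at -0.15 ± 0.09. MIR210HG, known from hypoxia, was at 0.10 ± 0.18, MIR29B2CHG at 0.12 ± 0.28 and MIR4435-2HG at 0.05 ± 0.07. CYTOR was at 0.04 ± 0.14. Of the longest transcript of MIR4435-2HG, 68.3% is near-identical to sequence elsewhere, mainly in CYTOR. Reads from that stretch cannot be assigned with certainty.

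**Figure D4:**
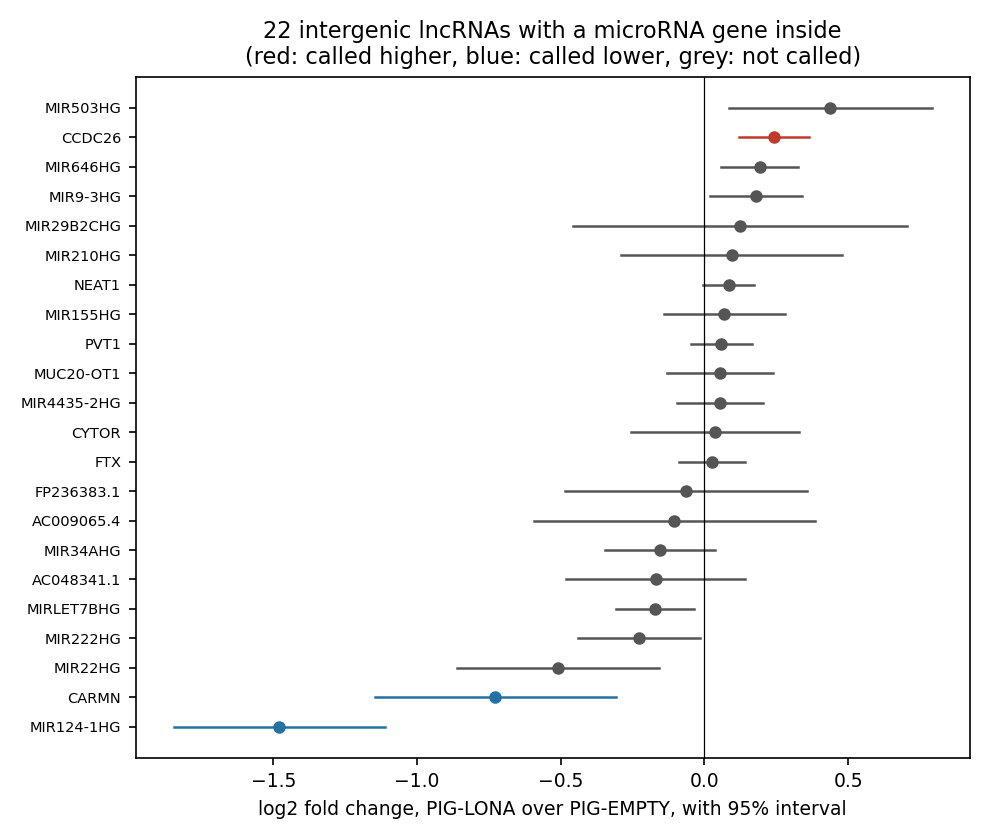
Log2 fold change of PIG-LONA over PIG-EMPTY with its 95% interval (horizontal axis) for the 22 lncRNAs with a microRNA gene inside, ordered from MIR503HG (0.44) at the top to MIR124-1HG (-1.48) at the bottom. Red marks the called rise, blue the 2 called falls and grey the 19 that did not pass.

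Lists of lncRNAs by role, some of which are typed other than lincRNA, were read from the same test, in which 6.44% of all genes passed. Of 9 tested nuclear architecture and chromatin lncRNAs 0 passed by edgeR, and the 2 from the X inactivation centre were at 0.17 ± 0.06 for JPX (edgeR adjusted p = 0.0911) and 0.03 ± 0.05 for FTX. JPX was at 0.257 without PIG-EMPTY replicate 2, at 0.174 without PIG-LONA replicate 1 and at 0.0863 without PIG-EMPTY replicate 1. Of 16 tested microRNA hosts, 0 rose and 2 fell, MIR124-1HG and MIR223HG. MIR223HG is the host of the myeloid microRNA miR-223 and is typed antisense, so it is not among the 412. It had 77.9 and 74.8 CPM in PIG-LONA and 90.5 and 97.5 CPM in PIG-EMPTY, a log2 fold change of -0.30 ± 0.05 (edgeR adjusted p = 0.00031), and is named after its values were seen. Of 8 tested myeloid lncRNAs, CCDC26 rose and MIR223HG fell. Of 6 tested p53-related lncRNAs 0 passed by edgeR, with PURPL, which is induced by p53, at 0.18 ± 0.10 and PVT1, the neighbour of MYC, at 0.06 ± 0.05. PURPL was at 0.273 when PIG-LONA replicate 1 was left out, at 0.385 when PIG-EMPTY replicate 2 was and at 0.00814 when PIG-EMPTY replicate 1 was. Of 6 tested growth-related lncRNAs 0 passed either.

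Genes for proteins that bind or process such RNAs were measured as 55 genes, of which 4 rose and 0 fell, against 6.44% of all tested genes and 8.28% of coding genes at 1 CPM or more that passed in either direction. SRRM2, a scaffold of nuclear speckles where MALAT1 resides, had 1013 and 1062 CPM in PIG-LONA and 935 and 905 CPM in PIG-EMPTY (log2 fold change 0.17 ± 0.03, edgeR adjusted p = 0.0033). XPO5, which exports microRNA precursors and lies on chromosome 6, had 193 and 202 CPM in PIG-LONA and 175 and 165 CPM in PIG-EMPTY (0.22 ± 0.04, edgeR adjusted p = 0.00218). With the chromosome 6 shift removed XPO5 was at 0.04 (adjusted p = 0.612). DROSHA, which cuts microRNA hosts in the nucleus, was at 0.13 ± 0.04 (edgeR adjusted p = 0.034), and HNRNPU, a nuclear matrix protein that tethers RNAs to chromatin, was at 0.11 ± 0.03 (adjusted p = 0.0406).

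All 4 of these genes were higher in both PIG-LONA libraries. When libraries were left out, SRRM2 ran from 0.141 to 0.207 and XPO5 from 0.172 to 0.262. DROSHA ran from 0.104 to 0.154 and HNRNPU from 0.091 to 0.135. By DESeq2 DROSHA and HNRNPU did not pass (adjusted p = 0.072 and 0.0573). The 12 paraspeckle protein genes had 0 calls by edgeR, with EWSR1 at 0.10 ± 0.03 (adjusted p = 0.0945). The 21 genes of the nuclear RNA exosome and its adaptors, which degrade many lncRNAs, had 0 calls, with ZFC3H1 at 0.13 ± 0.04 (adjusted p = 0.0947) and DIS3 at 0.11 ± 0.04 (adjusted p = 0.186). Leaving out PIG-LONA replicate 1 gave log2 fold changes of 0.0814 for EWSR1, 0.167 for ZFC3H1 and 0.151 for DIS3. Leaving out PIG-LONA replicate 2 gave 0.124, 0.0831 and 0.0607 in the same order.

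Most of the lncRNAs lie close to a coding gene. Of the 412, 78 overlap one, 138 lie within 5000 bases without overlap, 117 at 5000 to 50000 bases and 79 farther away. Their nearest coding genes are 385 distinct genes, of which 314 were tested, 15 rose and 11 fell, against the 8.28% of coding genes at 1 CPM or more that passed. Of the 15, 5 lie on chromosome 6. By DESeq2 7 of the neighbours rose and 4 fell. In 0 of the 338 tested pairs did both the lncRNA and its neighbour pass the edgeR test. Across these pairs Spearman's rho between the log2 fold changes was 0.0907, within 5000 bases it was 0.139 (191 pairs), or 0.0914 without chromosome 6 (181 pairs), and beyond 50000 bases -0.0454 (56 pairs). These are descriptions across genes that share the same 4 libraries.

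Near the lncRNAs that passed, CARMN stands beside IL17B, a cytokine gene 2487 bases away that had 7 and 5 counts in PIG-LONA and 14 and 14 counts in PIG-EMPTY (log2 fold change -1.34 ± 0.49, edgeR adjusted p = 0.121). TCF4, a transcription factor gene 98025 bases from LINC01929, was at -0.11 ± 0.05 (adjusted p = 0.208). TNKS, a poly-ADP-ribosylating enzyme gene, is the coding gene nearest to MIR124-1HG but over 50000 bases away, and was at 0.07 ± 0.05. VCPKMT near LINC01588 was at 0.07 ± 0.08 and ANKRD36C near LINC00342 at 0.33 ± 0.14 (adjusted p = 0.196). None of the 5 passed, while those beside CARMN and LINC01929 had the sign of their lncRNA, as did ANKRD36C. ANKRD36C was at 0.509 without PIG-LONA replicate 1 and at 0.0872 without PIG-LONA replicate 2. TCF4 was at -0.173 when PIG-LONA replicate 2 was left out and at -0.0534 when PIG-LONA replicate 1 was. Of 128 lncRNAs that start head to head with a coding gene within 5000 bases, 124 partners were tested, of which 6 rose and 1 fell. Over all tested genes 2.93% rose and 3.51% fell, and of coding genes at 1 CPM or more 8.28% passed in either direction. Of 36 pairs of lncRNAs within 50000 bases of each other, 21 had the same sign and in 0 did both pass. CCDC26, at 0.24, and AC103718.1, at -0.35 and 1722 bases away, had opposite signs, and AC103718.1 did not pass (adjusted p = 0.182).

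**Figure D5:**
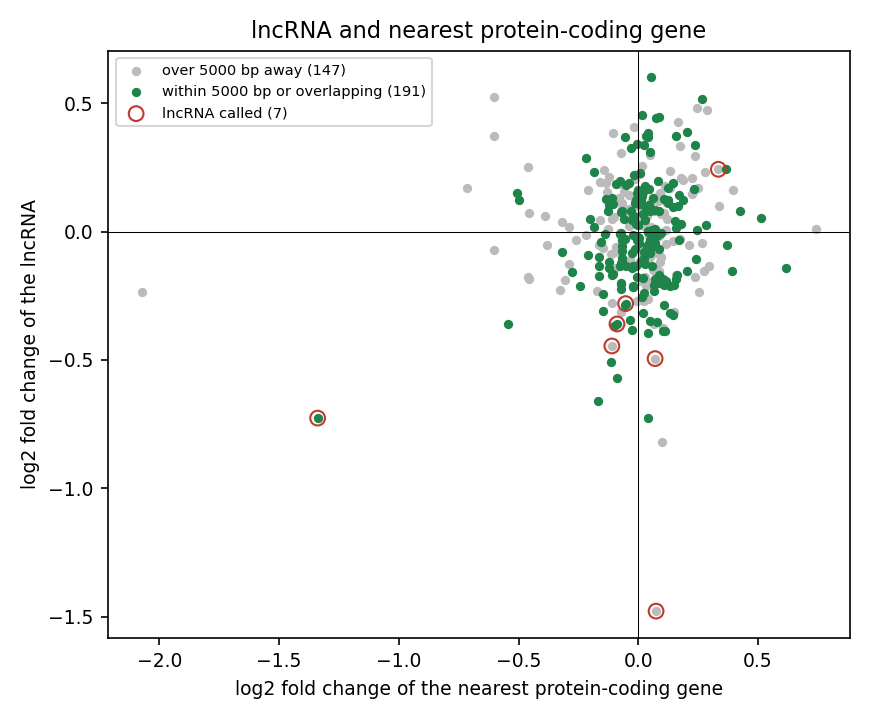
Log2 fold change of each lncRNA (vertical axis) against that of its nearest coding gene (horizontal axis) for the 338 tested pairs, green for the 191 within 5000 bases and grey for the rest, with a ring around the 7 whose lncRNA passed the test. The points gather around 0 on both axes, and the ringed pair at the lower left is CARMN and IL17B.

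Overlap bears on how far these counts can be assigned. Of the 412, 209 overlap no annotated gene, and of these 3 rose and 1 fell. The other 203 overlap another gene, 154 of the 412 on the opposite strand and 101 on the same strand, and of the 203, 1 rose and 6 fell. A near-identical stretch elsewhere was found for 42, and it covered 50% or more of the longest transcript in 19. Other noncoding classes at 1 CPM or more had called shares of 1.21% among 495 antisense genes and 6.25% among 112 processed transcripts, while 8.28% of 11261 coding genes at that level passed. Of 339 tested lincRNA genes under 1 CPM, 0.295% passed.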

How the data were processed

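Poly(A) RNA of 4 OCI-AML3 cultures, 2 per group from independent transductions, was sequenced with a directional kit, per the labels' protocols. The authors deposited raw read counts per gene, 1 column per library. FastQC 0.11.4, STAR 2.5, HTSeq and the build hg38 are listed in the submitters' processing notes. The counting's annotation and strand option were not given in the sources used here, so reads of overlapping or antisense genes cannot be told apart.

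Gene types, coordinates and overlaps came from GENCODE release 29 (GRCh38, the assembly of hg38), which matched 58548 rows. The groups were compared over all genes with edgeR 4.0.16 under R 4.3.3 (filterByExpr with a minimum count of 10 and a minimum total of 15, TMM scaling, glmQLFit and glmQLFTest, two-sided, Benjamini-Hochberg adjustment over 15918 genes, adjusted p under 0.05). The SE is the log2 fold change over the square root of F, and CPM values are TMM-scaled unless stated. Near-identical copies were sought with blastn (97% identity over at least 100 bases). The test was also run on counts simulated with the spread fitted here, taken as equal in both groups. That run cannot show how pairs of unequal spread affect the test. Alternatives were other scalings, DESeq2 1.42.0, limma-voom (limma 3.58.1), other filters, thresholds and choices of genes, each library left out, and chromosome 6 left out or its shift removed. The biological coefficient of variation was 2.95%. Counting precision is low for genes of a few CPM.

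The genes, lists and tests were chosen with earlier results of these data known. The genes named are those that passed, the 10 most abundant, those in lists by role, the 3 on each side of 1 CPM, coding neighbours of those that passed, and from each list of partner proteins those that passed or the 2 with the smallest p. AC048341.1, MIR223HG, HCG27, AL356417.3, KIF25-AS1 and AC103718.1 are named outside this rule, with their values known. Not every gene that the rule names is reported here.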

Additional observations from a re-analysis of the deposited data

How the results depend on the processing

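With DESeq2, 219 genes were higher and 254 lower in PIG-LONA, among them 1 and 2 of the lncRNAs, 7 and 4 of their coding neighbours and 2 partner protein genes, all higher. With no filter on low counts the counts were 140 and 194 over all genes, 1 and 2, 6 and 3, and 2 in the same order. At adjusted p under 0.01 they were 228 and 300, 1 and 2, 6 and 7, and 2, where the stricter limit itself lowers them. Leaving out each library in turn gave 157 to 1222 higher and 309 to 1109 lower genes, 2 to 17 higher and 4 to 17 lower lncRNAs, 5 to 44 higher and 4 to 26 lower neighbours and 0 to 13 higher partner genes. Such a fit assumes that the lone library of a group varies like the other group. Without chromosome 6 genes, 219 genes, 2 lncRNAs and 8 neighbours were higher, fewer genes being tested. In the main fit, 226 of the 467 higher genes lay on chromosome 6. With its shift removed, 223 genes and 8 neighbours were higher and 1 partner gene was lower. Among lncRNAs with no overlapping gene 1 was lower, and outside chromosome 6 the lncRNA median was -0.0163. Other scalings, limma-voom, the other filter and the other limits on level kept each of these counts within 1.5 times. The cause of these differences was not tested beyond what the settings themselves fix.

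Samples with the same replicate number did not deviate together (correlation 0.0288), so the numbers were not read as pairs. With the replicate number as a block, 498 genes were higher and 603 lower, among them 5 and 7 lncRNAs, 16 and 13 neighbours and 4 and 0 partner genes, and the lncRNA median was 0.000128.

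Values that changed sign belonged to genes that did not pass with all 4 libraries. AC104232.1 was at 0.00238 with no filter. When libraries were left out, it ran from -0.0393 to 0.0313, MALAT1 from -0.216 to 0.0438, MIR210HG from -0.189 to 0.389, MIR29B2CHG from -0.065 to 0.256, MIR4435-2HG from -0.00261 to 0.119, CYTOR from -0.00926 to 0.0951, AL158152.1 from -0.13 to 0.0583, NDE1 from -0.121 to 0.00781 and TNKS from -0.0032 to 0.142.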
